A study of Homo sapiens with 12 samples.

Results

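The m6A peaks that lie in 5′ untranslated regions (5′ UTRs) of mRNAs were examined in human OSCC cells. Each peak is a stretch of RNA that was enriched by an antibody against m6A. A peak belonged to the set when its annotation in the peak lists was 5′ UTR or start codon, and no measured value entered this rule. The class and the lists of known genes used further on were chosen with earlier results of these data known. Of 14586 peaks in 4 lists, 492 (3.37%) met the rule, and 3 of them carried the start codon label. They were annotated to 371 gene symbols (372 Ensembl identifiers), and 490 of the 492 were on protein-coding genes.

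The study treated OSCC cells with rapamycin, an inhibitor of mTOR that induces autophagy, and asked how m6A and mRNA levels changed. MeRIP-seq (sequencing of RNA fragments bound by the m6A antibody beside an input of the same RNA without immunoprecipitation) was performed on the tongue carcinoma lines HSC3 and CAL33, with 100 nM rapamycin for 3 days or without it. Each of the 4 lists came from 1 immunoprecipitated and 1 input library, so no value of a peak has a replicate. RNA-seq comprised 2 rapamycin and 2 control libraries numbered 1 and 2, with 18492273 and 18763045 counts (rapamycin) and 21653290 and 23763098 counts (control).

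The labels of the RNA-seq libraries give HSC3 for both rapamycin libraries and CAL33 for both controls, so that line and treatment could not be told apart from the labels. In the data, libraries of equal number were the more alike. RNA-seq calls over all members are therefore given without the replicate number and with it as a block. Calls made with the block rest on equal numbers marking the same line, which the RNA-seq labels do not give. *SOX2*, a stem cell transcription factor, was at 0.0526 and 0.139 CPM in the number 1 rapamycin and control libraries. CPM are read counts scaled to a library's total over the tested genes, with that total adjusted by edgeR's TMM factor. *SOX2* was at 151 and 87.7 CPM in the number 2 libraries. The m6A lists held a *SOX2* 5′ UTR peak in CAL33 rapamycin alone. The squamous keratin *KRT5* was at 6.10 and 34.2 CPM in the number 1 libraries and at 327 and 1703 CPM in the number 2 libraries, rapamycin first. The 12 epithelial and squamous markers were all measured. Their most abundant gene was *EGFR*, *KRT14* was at 0 in both number 1 libraries, and their summed level was 18511.5 and 11111 CPM in the number 1 libraries and 5006 and 6406 CPM in the number 2 libraries, rapamycin first. Of 12 fibroblast, endothelial and leukocyte markers, 6 passed the filter on low counts, and their summed level was 48.1, 37.5, 73.9 and 39.6 CPM in the same order, led by *COL1A1*. *COL3A1*, *DCN*, *PTPRC*, *CD3E*, *CD14* and *LYZ* did not pass the filter. In these bulk samples, fewer cells of a kind and less RNA per cell cannot be told apart.

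m6A is written on adenosines inside mRNAs by a nuclear complex of METTL3, METTL14 and WTAP, most often in long internal exons, near stop codons and in 3′ UTRs. In 5′ UTRs it is rarer, and it is known from stress and heat shock work as a mark that can help ribosomes to start translation without the cap-binding complex, with eIF3 as one reader. The antibody also binds m6Am, a related base that PCIF1 places on the first transcribed nucleotide beside the cap, so a 5′ UTR peak by itself does not say which of the bases was bound.

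The letters under some of these peaks can be shown. Windows around RefSeq gene starts (GRCh38.p14, the assembly of the hg38 build in the submitters' processing notes) were searched on the transcribed strand for GGAC, the core of the sequence that METTL3 and METTL14 prefer. The 30-base stretches below are of 2 kinds. The first 4 lie within 50 bases downstream of a gene start, under the 4 peaks of highest fold enrichment among those with a motif there. The others, and *LGR4* too, belong to the genes with a motif whose mRNA passed a test given further on. Capitals mark the motif that each stretch was cut around, and all run 5′ to 3′ on the gene's strand. The *CEBPB* stretch holds another GGAC, 34 bases from the start, left in lower case. The motif lies inside the peak, while the bases around it can run past the peak's end.
PPP1R3D: taagtaacgccgcGGACcgggaaagtggga
ZNF503: cagagccccggctGGACacgcagcggctcg
TSSK2: gtagtgtaaatgaGGACaatgcctgctggc
LGR4: ctagaagggaaaaGGACgggaagagattga
LRR1: cagcccgagtcgcGGACcagtccaacaggc
CEBPB: agagccgcgcacgGGACtgggaaggggacc
PA2G4: ctggcggccgagaGGACtagttgtcccagc
STC2: ggtccagccgccgGGACaacacctgctcga

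The *PPP1R3D* stretch lies at chr20:59940269-59940298 on the minus strand, with the motif 21 bases from the start, under a CAL33 rapamycin peak of fold enrichment 493. That of *ZNF503* lies at chr10:75401736-75401765 on the minus strand, under a CAL33 rapamycin peak of 158. *TSSK2* (chr22:19131319-19131348, plus strand) and *LGR4* (chr11:27472748-27472777, minus strand) had their motifs under HSC3 control peaks of 202 and 196. *LRR1* (chr14:49598881-49598910, plus strand) had its motif under an HSC3 control peak of 533, *PA2G4* (chr12:56104515-56104544, plus strand) under one of 15.5, *CEBPB* (chr20:50190838-50190867, plus strand) under an HSC3 rapamycin peak of 10.1 and *STC2* (chr5:173328482-173328511, minus strand) under one of 30.1. The *LRR1*, *PA2G4* and *STC2* motifs are 46, 31 and 84 bases upstream of the RefSeq start used here, although the peaks over them were annotated as 5′ UTR. With 1 chromosome left out of this search, 28 member peaks, on 28 genes, had a GGAC inside both the peak and a window. Among 79 windows whose first 50 transcribed bases met a 5′ UTR peak, 15 (19.0%) held GGAC, beside 18.9% of all 35116 RefSeq windows. GGACT, a longer form that contains GGAC, was in 3 of the 79 (3.80%), beside 4.90% of all. The first base was A, the base that can carry m6Am, in 45.6% of the 79 and in 44.4% of all windows, and the median GC content was 68% and 60%. On both strands together GGAC was in 30.4% of the 79 and in 33.5% of all. The shares with GGAC under the peaks were close to the shares over all windows.

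The 5′ UTR class was small in each list and its share moved in opposite directions with rapamycin in the 2 lines. HSC3 control held 140 such peaks of 3930 (3.56%, 95% Wilson interval 3.03 to 4.19), and HSC3 rapamycin held 126 of 3952 (3.19%, 2.68 to 3.78). CAL33 control held 109 of 3625 (3.01%, 2.5 to 3.61), and CAL33 rapamycin held 117 of 3079 (3.80%, 3.18 to 4.53). The intervals of each pair of treatments overlapped, and they cover counting error only. Coding sequence (CDS) peaks made up 41.3%, 41.4%, 42.6% and 41.0% of the same lists.

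Most of these genes carried their 5′ UTR peak in a single list. Of the 371 genes, 298 (80.3%) were in 1 list, 55 in 2, 12 in 3 and 6 in all 4. Of 2702 genes with a CDS peak 54.8% had it in 1 list, of 2907 with a 3′ UTR peak 61.9%, and of all 6160 genes with any peak 52.7%, with no test of the difference. The 492 peaks fell into 384 separate loci, of which 322 were in 1 list, 45 in 2, 13 in 3 and 4 in all 4. At 11 loci the same stretch was annotated to more than 1 gene, as for *SCAF8* with *TIAM2* and *ZBED6* with *ZC3H11A*, and these loci account for 34 of the 492 peaks. In HSC3 control 68.4% of the genes with a 5′ UTR peak had no peak elsewhere in the same list, and the shares were 55.5%, 61.8% and 59.5% in HSC3 rapamycin, CAL33 control and CAL33 rapamycin.

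The fold enrichment, the ratio of immunoprecipitated to input signal as deposited, ranged over more than 2 orders of magnitude within the class. Its median was 44.9 in HSC3 control (quartiles 11.2 and 135, range 1.89 to 662) and 38.3 in HSC3 rapamycin (16.4 and 72.2, range 2.67 to 470). The median was 46.2 in CAL33 control (12.8 and 149, range 1.58 to 528) and 24.5 in CAL33 rapamycin (12.4 and 71.0, range 1.69 to 619). As a percentile of its own list, which removes a list's overall level, the median 5′ UTR peak stood at 56.1, 53.4, 50.9 and 40.5 in that order. The HSC3 control median was thus above the middle of its list, and the CAL33 rapamycin median was below. CDS peaks had medians of 33.6, 32.8, 38.3 and 34.8, and 3′ UTR peaks of 34.3, 35.5, 51.1 and 37.5.

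**Figure D1:**
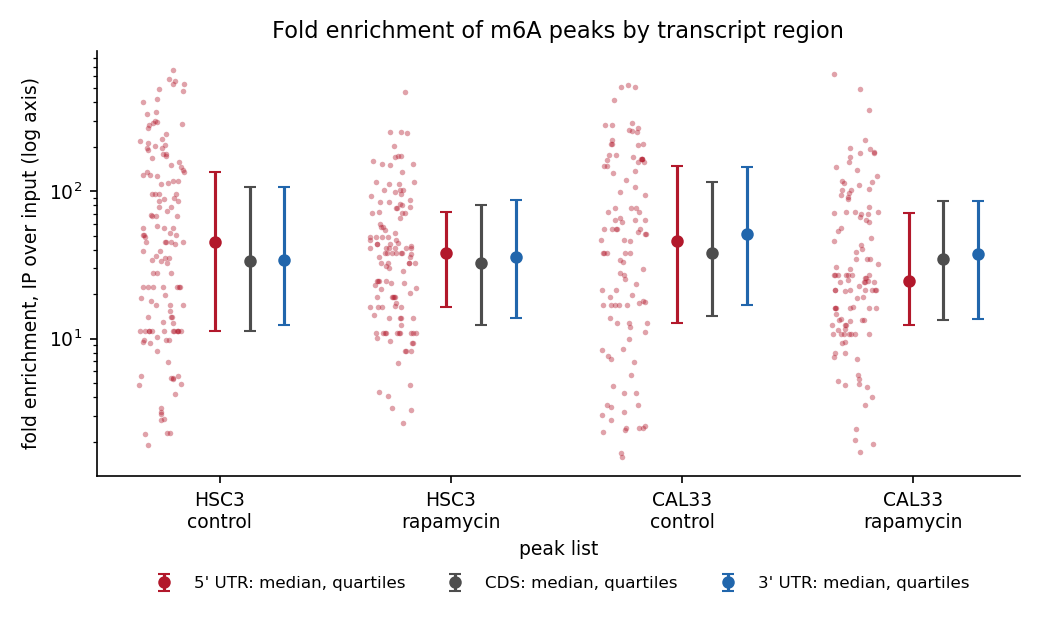
Fold enrichment (immunoprecipitated over input, log axis) of 5′ UTR peaks in the 4 lists, each red dot 1 peak, beside the median (large dot) and quartiles (bars) of 5′ UTR, CDS and 3′ UTR peaks. The 5′ UTR median lies above the CDS median in 3 lists and below it in CAL33 rapamycin (24.5 against 34.8).

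Over the lists, the log2 ratio of the 5′ UTR to the CDS median was 0.42, 0.22, 0.27 and -0.51 (mean 0.10 ± 0.41 SD, n = 4 lists, two-sided exact sign-flip permutation p = 0.75). Against 3′ UTR peaks it was 0.39, 0.11, -0.15 and -0.61 (mean -0.07 ± 0.43 SD, n = 4 lists, exact permutation p = 0.75). With 4 lists this test cannot go below 0.125, and 6 such comparisons were made (adjusted p = 0.75 for both). Within single genes that had a peak of both kinds, the 5′ UTR peak was the higher in 12 of 25 genes against CDS in HSC3 control, 17 of 33 in HSC3 rapamycin, 12 of 24 in CAL33 control and 9 of 19 in CAL33 rapamycin. Against 3′ UTR peaks it was the higher in 9 of 21, 15 of 26, 13 of 23 and 12 of 24 genes in the same order.

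Many values in the lists cannot be ranked against each other. In the 4 lists, 58.6%, 69.8%, 55.0% and 66.7% of the 5′ UTR peaks had exactly the fold enrichment and p-value of a peak on another gene, beside 59.4%, 61.7%, 55.7% and 60.3% of all peaks. The most common such pair in HSC3 control, a fold enrichment of 11.2 with a log10 p of -1.54, was shared by 269 peaks, 9 of them in 5′ UTRs. Of the 5′ UTR peaks, 19, 12, 9 and 10 had a deposited false discovery rate above 0.05. The depth behind a peak is unknown here.

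The peaks of the class were found again less often than CDS peaks in every list, by at least 1 shared base over exonic blocks on the same strand. In HSC3, 25 of 140 control peaks (17.9%, 95% Wilson interval 12.4 to 25) overlapped any rapamycin peak, and 21 of 126 rapamycin peaks (16.7%, 11.2 to 24.1) overlapped a control peak. In CAL33, 27 of 109 control peaks (24.8%, 17.6 to 33.6) and 26 of 117 rapamycin peaks (22.2%, 15.6 to 30.6) did. The CDS shares in that order were 30.3%, 31.6%, 25.7% and 31.7%, and the 3′ UTR shares were 27.1%, 26.6%, 23.5% and 28.4%. The difference from CDS averaged -9.47 ± 6.07 percentage points (SD, n = 4 lists, exact permutation p = 0.125, adjusted 0.25) and was negative in 4 of 4 lists. From 3′ UTR peaks it averaged -6.00 ± 5.14 (n = 4 lists, exact permutation p = 0.25, adjusted 0.375), negative in 3 of 4. Counted by genes with the same class of peak in both lists, the mean differences were -22.6 (CDS) and -16.6 (3′ UTR) percentage points. The smallest p of this design, 0.125, was reached against CDS and does not pass a threshold of 0.05. The control and rapamycin lists of a line are compared with each other from both sides. The 4 values are therefore not independent, and these p-values can be too low.

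Between the cell lines at the same treatment, 16.4%, 16.7%, 18.3% and 21.4% of the 5′ UTR peaks overlapped a peak of the other line (HSC3 control, HSC3 rapamycin, CAL33 control, CAL33 rapamycin). The difference from CDS peaks averaged -10.5 ± 2.00 percentage points and that from 3′ UTR peaks -7.03 ± 2.02 (SD, n = 4 lists, exact permutation p = 0.125, adjusted 0.25, for both). It was negative in every list in both cases. Each pair of lists enters these tests from both sides, so the 4 values are not fully independent.

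**Figure D2:**
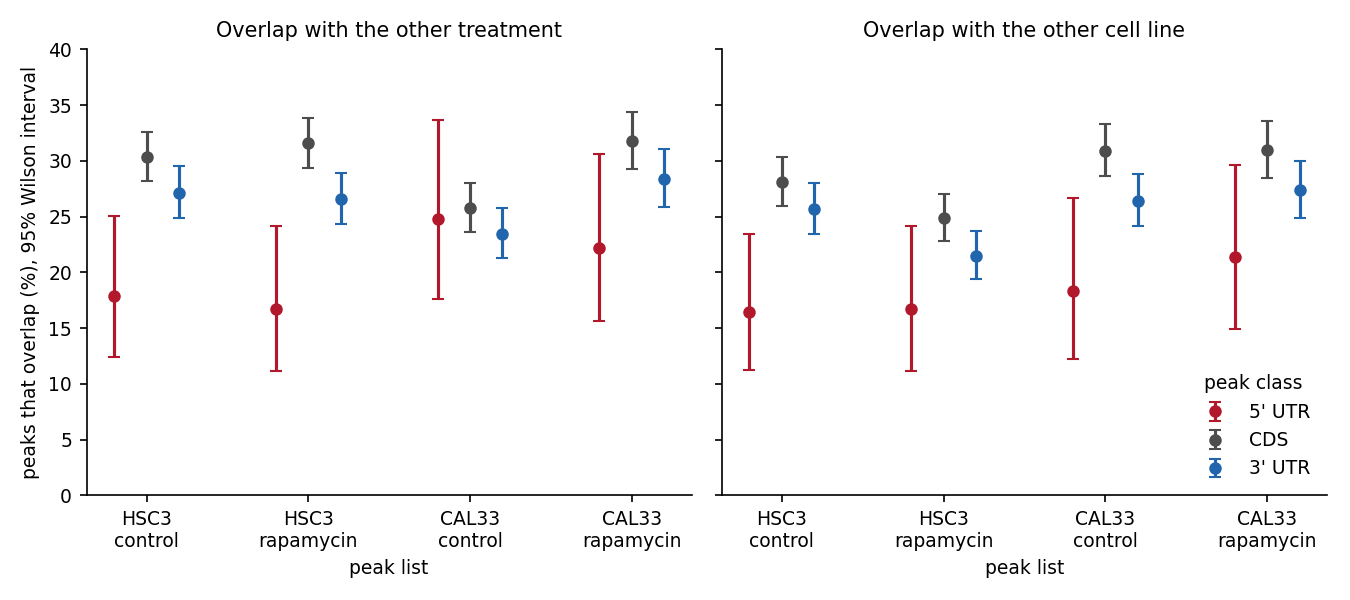
Share of peaks (percent) in each list that overlapped a peak of the other treatment in the same line (left) or of the other line at the same treatment (right), by class, with 95% Wilson intervals. The 5′ UTR shares lie below the CDS shares in all 4 lists in both panels, with wide intervals that rest on 109 to 140 peaks.

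Where a 5′ UTR peak overlapped a peak of the other treatment, that peak was mostly annotated to a 5′ UTR as well. This held for 19 of 25 in HSC3 control, 19 of 21 in HSC3 rapamycin, 25 of 27 in CAL33 control and 24 of 26 in CAL33 rapamycin, and the rest were CDS or exon peaks.

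*WTAP*, which encodes the subunit that brings the m6A methyltransferase to nuclear speckles, had a 5′ UTR peak at 1 of the 4 loci found in all lists. Its peak covered chr6:159726512-159726751 on the plus strand in HSC3 control, HSC3 rapamycin and CAL33 rapamycin, and chr6:159726093-159726571 in CAL33 control. The fold enrichment was 289 in HSC3 control and 46.5 in HSC3 rapamycin, and 528 in CAL33 control and 53.6 in CAL33 rapamycin. Both control values were higher than both rapamycin values. The rapamycin to control difference was -2.64 on the log2 scale in HSC3 and -3.30 in CAL33. As percentiles of the list the values were 93.5 and 59.3 in HSC3 and 97.4 and 61.1 in CAL33. The CAL33 control and rapamycin peaks shared only 60 bases, so this pair compares adjoining more than identical stretches. The RefSeq starts used here lie at positions 159727117 and 159727506, and the peak shared by 3 lists ends 366 bases upstream of the nearer one, although it was annotated as 5′ UTR. No sequence is shown for it, since the window around that start does not reach the peak. CAL33 rapamycin also held a *WTAP* CDS peak with a fold enrichment of 32.2. Each value comes from 1 library pair, and the difference was not tested.

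*WTAP* mRNA was at 81.0 and 68.2 CPM in the rapamycin libraries and at 92.5 and 109 CPM in the controls (numbers 1 and 2). All rapamycin values were below the control values, with means of 74.6 ± 9.09 and 101 ± 11.5 CPM (SD, n = 2). The log2 fold change was -0.43 (SE 0.30) and did not pass edgeR's quasi-likelihood test (Benjamini-Hochberg adjusted p = 0.9997), nor with the replicate number as a block (adjusted p = 0.32).

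The peaks of *PNMA1*, *U2AF2* and *MTRNR2L12* also overlapped in all 4 lists. *PNMA1* (paraneoplastic antigen Ma1, chr14:73713598-73713926, minus strand) went the other way from *WTAP*. Its fold enrichment was 52.3 in HSC3 control and 116 in HSC3 rapamycin, and 46.2 in CAL33 control and 102 in CAL33 rapamycin. Both rapamycin values were above both control values, by 1.15 and 1.14 on the log2 scale. Its mRNA was at 56.1 and 34.7 CPM with rapamycin and 56.7 and 41.1 CPM without, and these groups overlapped.

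*U2AF2* encodes the large subunit of the factor that binds the polypyrimidine tract in front of 3′ splice sites. Its peak lay within chr19:55654444-55654802 on the plus strand. The fold enrichment was 68.7 in HSC3 control and 24.6 in HSC3 rapamycin, but 33.1 in CAL33 control and 222 in CAL33 rapamycin, so the direction differed between the lines. Its mRNA was at 247 and 119 CPM with rapamycin and at 522 and 454 CPM without, with no overlap of the groups. The log2 fold change was -1.42 (SE 0.47), which did not pass edgeR's quasi-likelihood test without the block (Benjamini-Hochberg adjusted p = 0.9997) and passed with it (-1.51, SE 0.28, adjusted p = 0.0018).

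*MTRNR2L12*, a nuclear copy of mitochondrial ribosomal RNA sequence, had fold enrichments of 44.9 and 13.7 in HSC3 and 38.3 and 45.6 in CAL33 (control, rapamycin). Reads from the mitochondrial original could have been placed there, so the assignment is uncertain. The gene had 3 and 2 RNA-seq counts with rapamycin and 3 and 0 without, and it did not pass the filter on low counts.

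**Figure D3:**
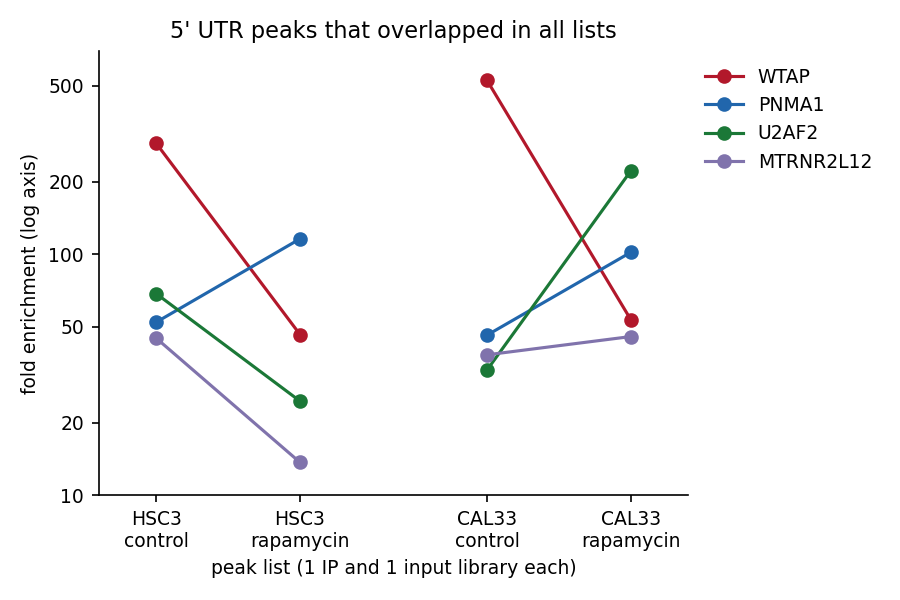
Fold enrichment (log axis) of the 4 5′ UTR peaks that overlapped in all lists, control and rapamycin joined by a line within each cell line, each point 1 library pair. *WTAP* is lower and *PNMA1* higher with rapamycin in both lines, and *U2AF2* is lower in HSC3 (68.7 to 24.6) and higher in CAL33 (33.1 to 222).

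Where both overlapping peaks of a line were annotated as 5′ UTR, lower and higher values were mixed. In HSC3 there were 19 pairs, of which 11 were lower and 8 higher with rapamycin by percentile, with a median change of -25.4 percentile points and extremes of -69.3 and 52.9. In CAL33 there were 33 pairs, of which 19 were lower and 14 higher, with a median of -0.92. Counted once per locus (21 loci), a choice made after seeing the data, 13 were lower and 8 higher, with a median of -3.67 and extremes of -80.5 and 53.2. CDS pairs, not counted by locus, had medians of -0.54 (506 pairs, HSC3) and -3.0 (420 pairs, CAL33). In HSC3 the value for *TGFB1*, which encodes a secreted growth inhibitor of epithelia, was 662 in control, the highest of the class, and 112 with rapamycin. *IER2*, an immediate early gene, was at 211 and 46.5. *DDX6*, which encodes an RNA helicase of P-bodies, was at 113 in control and 470 with rapamycin, the highest of the class in its list. In CAL33 *SLC35C2* was at 281 in control and 7.5 with rapamycin, and *GPBP1* was at 164 and 3.53. These genes were chosen after their values were seen.

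Peaks seen with one treatment alone were the larger group, in 5′ UTR, CDS and 3′ UTR peaks alike. With rapamycin, 105 HSC3 and 91 CAL33 5′ UTR peaks overlapped no control peak of the line, on 99 and 89 genes, and 11 genes were common to both lines. Without rapamycin, 115 and 82 peaks on 112 and 80 genes overlapped no rapamycin peak, and 8 genes were common. These peaks were 83.3% and 77.8% of the rapamycin and 82.1% and 75.2% of the control 5′ UTR peaks (HSC3, CAL33), beside 71.6%, 70.1%, 71.8% and 74.9% of all peaks. The 11 genes were 11.1% of the HSC3 and 12.4% of the CAL33 genes, and the 8 were 7.14% and 10%. For all peaks the genes common to both lines were 25.7% and 32.4% (rapamycin) and 30.2% and 32.5% (control). The absence of a peak from a list does not show that the RNA was unmodified, since the depth of the lists is unknown.

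Of the genes with a rapamycin-only peak in both lines, the 5 with the highest smaller fold enrichment were *TULP4*, *MSL2*, *RABGEF1*, *LURAP1L* and *PAWR*. *MSL2*, a subunit of a histone acetyltransferase complex, had values of 82.0 in HSC3 and 118 in CAL33 at positions that shared 181 bases (chr3:136195280-136195520 in HSC3, minus strand). *TULP4* had values of 150 and 185, but its HSC3 and CAL33 peaks did not overlap each other. *RABGEF1*, which encodes an exchange factor for the endosomal RAB5, had 49.2 and 354, *LURAP1L* 170 and 21.4, and *PAWR*, which encodes a pro-apoptotic protein, 14.4 and 26.8. The mRNA of *PAWR* was at 132 and 66.2 CPM with rapamycin and at 81.9 and 46.1 CPM without (numbers 1 and 2). It was higher with rapamycin within each number (log2 0.69 and 0.52), while the groups overlapped. None of these 5 genes passed the RNA-seq test, with adjusted p from edgeR between 0.146 and 0.798 with the block.

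Of the genes with a control-only peak in both lines, the corresponding 5 were *LHX1*, *RIC8A*, *IRS1*, *NRIP1* and *FBRS*. *LHX1*, a homeobox transcription factor, had values of 477 in HSC3 and 221 in CAL33, in peaks that shared 150 bases (chr17:36937174-36937846 in HSC3, plus strand). *RIC8A*, which encodes a chaperone of G protein alpha subunits, had 219 and 132 in peaks that did not overlap between the lines, *NRIP1*, a nuclear receptor corepressor, 78.5 and 46.8, and *FBRS* 22.4 and 38.3. *IRS1*, which encodes the adaptor between the insulin and IGF1 receptors and PI3 kinase and mTOR, had 336 and 119 at positions that did not overlap between the lines. *IRS1* mRNA was at 35.0 and 60.3 CPM in the number 1 rapamycin and control libraries and at 68.6 and 40.2 CPM in the number 2 libraries, so the 2 numbers went in opposite directions. None of these 5 passed the RNA-seq test, with edgeR adjusted p between 0.223 and 0.995 with the block.

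The place of each peak relative to the gene start was taken from RefSeq. The choice of members by their 5′ UTR annotation puts them nearer to a start than CDS peaks, whose values are given for scale. A RefSeq start on the same strand was found for 395 of the 492 peaks (80.3%). Of these, 49 covered the nearest start, 128 began fewer than 300 genomic bases downstream of it, 165 began 300 or more bases downstream, introns included, and 53 ended upstream of it. The first 50 bases after a start were met by 87 of the 395 (22.0%), beside 0.872% of 4929 matched CDS peaks. The median fold enrichment was 29.5 for peaks that covered the start, 35.3 for those that began fewer than 300 bases downstream, 24.8 for those further down, 49.2 for those upstream and 44.9 for the 97 without a matched start.

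**Figure D4:**
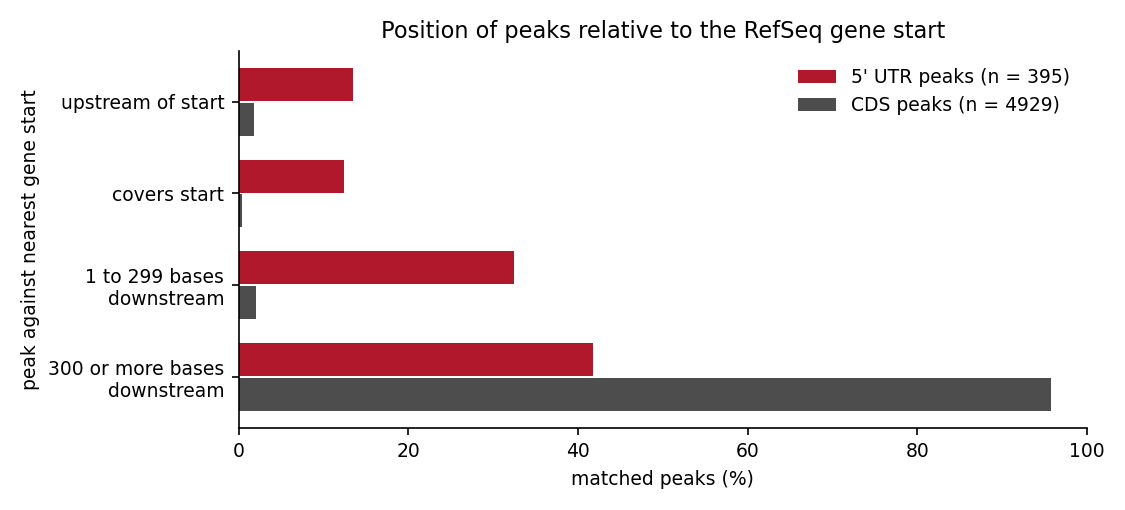
Share of matched peaks (percent) by their place relative to the nearest RefSeq gene start, for 5′ UTR peaks (red) and CDS peaks (grey), in genomic bases. Of 395 5′ UTR peaks, 49 covered the start and 165 began 300 or more bases downstream.

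The mRNAs of these genes were well expressed. Of the 372 identifiers, 351 passed the filter on low counts (2.22% of the 15826 genes tested) and 21 did not. The median level of the 351 was 53.5 CPM, beside 19.2 CPM for all tested genes, 40.2 CPM for genes with a CDS peak and 49.9 CPM for those with a 3′ UTR peak. CPM is not corrected for length.

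Without the block, edgeR's quasi-likelihood test called 0 of the 351 at a Benjamini-Hochberg adjusted p of 0.05, as it called 0 of all 15826 genes (0%). At an unadjusted p under 0.05 there were 14 of 351, beside 446 of 15826, and DESeq2 called 1 of the 351 (*JUNB*) and 36 of all. With the replicate number as a block, 38 of 351 (10.8%) passed, beside 8.15% of all tested genes. Of these, 18 were higher with rapamycin (5.13%, beside 4.65% of all) and 20 lower (5.70%, beside 3.5%). The shares of the members were not far from the background. Their median log2 fold change was -0.09 without the block and -0.10 with it, and that of all tested genes was 0.06 and 0.05. Genes with a CDS peak had medians of -0.08 and -0.10, and genes with a 3′ UTR peak had -0.05 and -0.06. With the block 8.91% of tested genes with a CDS peak and 11.3% of those with a 3′ UTR peak passed. A lower median was thus not particular to 5′ UTR peaks. For the members, leaving out 1 library gave between -0.14 (without rapamycin 1) and -0.03 (without control 1), and upper-quartile scaling gave -0.013. The fits with 1 library left out had no block, and the numbers were unequal between the treatments in them. Within the numbers the median of the members was -0.10 (number 1) and near 0 (number 2).

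Calls were compared between genes by the treatment whose lists held the peak, with no test. Among 155 tested genes with a 5′ UTR peak in control lists alone, 0 were called higher (0%) and 10 lower (6.45%) with the block, beside 4.65% and 3.5% of all tested genes. Among 145 with the peak in rapamycin lists alone, 15 were called higher (10.3%) and 6 lower (4.14%). Among 51 with the peak under both treatments, 3 were higher and 4 lower. For CDS peaks there were 22 higher (2.62%) and 53 lower (6.30%) of 841 genes in control alone, 51 (6.40%) and 20 (2.51%) of 797 in rapamycin alone, and 34 and 51 of 956 under both. For 3′ UTR peaks there were 47 (4.77%) and 48 (4.87%) of 986 in control alone, 67 (7.57%) and 36 (4.07%) of 885 in rapamycin alone, and 51 and 61 of 880 under both. The part of mRNA level in peak calling was not tested, and the difference between the classes was not tested.

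Among the genes that passed with the block, the 3 with the largest positive differences at a mean of at least 1 on the log2 CPM scale were *PRDM1*, *HBP1* and *JUNB*. *JUNB*, an AP-1 subunit, was at 238 and 327 CPM with rapamycin and at 86.9 and 81.0 CPM without, with no overlap (means 282 ± 63.3 and 83.9 ± 4.15 CPM, SD, n = 2). Its log2 fold change with the block was 1.73 (SE 0.27, edgeR adjusted p = 4.7e-04). Its 5′ UTR peak, with a fold enrichment of 31.0, was in HSC3 rapamycin alone. *HBP1*, a repressor of cell cycle genes, was at 45.5 and 78.8 CPM with rapamycin and 17.8 and 17.6 CPM without (1.76, SE 0.31, edgeR adjusted p = 0.0014), with a peak of 10.7 in CAL33 rapamycin alone that is among those with a deposited false discovery rate above 0.05 and shares its values with peaks on other genes. *PRDM1*, a zinc finger transcriptional repressor, was at 14.0 and 8.56 CPM against 3.09 and 3.04 CPM (1.83, SE 0.46, edgeR adjusted p = 0.014), with a peak of 23.2 in HSC3 rapamycin alone.

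On the lower side stood *PCDH19*, *TMEM158* and *U2AF2*. *PCDH19*, a cell adhesion protein, was at 9.60 CPM with rapamycin and 102 CPM without in the number 2 libraries, but at 0.210 and 0.416 CPM in number 1, so its difference came from number 2. Its log2 fold change without the block was -3.38, but 3.53 when control 2 was left out and -7.92 without rapamycin 2. With a library left out, a difference between treatments cannot be told apart from one between numbers. The *PCDH19* peak, with a fold enrichment of 19.9, was in CAL33 control alone. *TMEM158*, a membrane protein induced by RAS, was at 2.1 and 0.274 CPM with rapamycin and 6.60 and 1.44 CPM without, groups that overlapped, with an edgeR adjusted p of 0.0495 with the block. Its log2 fold change without the block was -1.75, and it ranged from -3.87 (without rapamycin 1) to -0.32 (without control 1) when 1 library was left out. It was -0.95 without rapamycin 2. The *TMEM158* peak (101) was in HSC3 rapamycin alone, whereas *U2AF2* had a peak in every list.

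Of the 28 genes with a GGAC under the peak, not all of which were tested, 5 passed with the block. Among all tested genes 8.15% passed, and among those with a 5′ UTR peak 10.8%. Both are shares of tested genes, and how many of the 28 were tested was not counted. The 5 therefore give no share to set beside them, and no difference was tested. *CEBPB*, *STC2*, *LRR1* and *PA2G4* were chosen for the sequences above because they passed, so their change is a description. *CEBPB*, a bZIP factor whose own translation is controlled through its leader, was at 186 and 304 CPM with rapamycin and 117 and 94.8 CPM without (log2 1.17). *STC2*, a secreted stress-induced glycoprotein, was at 331 and 169 CPM against 98.4 and 121 CPM (1.12). *LRR1*, a substrate receptor of a ubiquitin ligase, was at 8.41 and 8.56 CPM against 16.9 and 23.4 CPM (-1.23), and *PA2G4*, a growth-regulated ribosome factor, at 196 and 94.6 CPM against 308 and 274 CPM (-1.09). In these 4 genes the groups did not overlap. *LGR4*, a receptor for R-spondins, was at 11.3 and 55.8 CPM against 33.4 and 80.6 CPM (-1.04), and its groups overlapped. *STC2* also had a CAL33 control peak of 283 that did not cover its motif. *PPP1R3D* and *ZNF503* did not pass (log2 0.05 and 0.36), and *TSSK2* did not pass the filter on low counts.

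The genes named next also passed with the block and were chosen after their values were seen. On the lower side, *FEN1*, the flap endonuclease of lagging strand synthesis, was at 146 and 43.9 CPM with rapamycin and 276 and 174 CPM without (log2 -1.45), and its peaks, 9.41 and 17.3, were in the control lists of both lines. *SQLE*, which encodes squalene epoxidase of cholesterol synthesis, was at 61.8 and 35.8 CPM against 111 and 152 CPM (-1.46). Its HSC3 peak was at 5.3 in control and 42.4 with rapamycin, the opposite direction to its mRNA, and a CAL33 peak of 204 was in control alone. Both genes had groups that did not overlap. *HEXIM1*, an inhibitor of the elongation factor P-TEFb, was at 50.4 and 38.4 CPM against 88.8 and 83.9 CPM (-0.97), again without overlap. Its CAL33 peaks were at 251 in control and 126 with rapamycin but shared only 31 bases, and its HSC3 control peak was at 18.1. On the higher side, *PIM3*, a serine/threonine kinase, was at 88.1 and 206 CPM against 49.7 and 59.9 CPM (1.31), with rapamycin-only peaks of 4.86 in HSC3 and 196 in CAL33. *PRSS8*, an epithelial membrane protease, was at 140 and 142 CPM against 61.4 and 39.0 CPM (1.52), with a peak of 16.1 in CAL33 rapamycin. *BNIP3L*, a receptor for the autophagy of mitochondria, was at 101 and 80.0 CPM against 66.6 and 35.6 CPM (0.88), with a peak of 9.30 in HSC3 rapamycin. *SLC1A5*, a glutamine transporter, was at 751 and 624 CPM against 469 and 276 CPM (0.93). Its CAL33 peak was at 38.3 in control and 13.5 with rapamycin, the opposite direction to its mRNA. In these 4 genes both rapamycin values exceeded both control values.

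**Figure D5:**
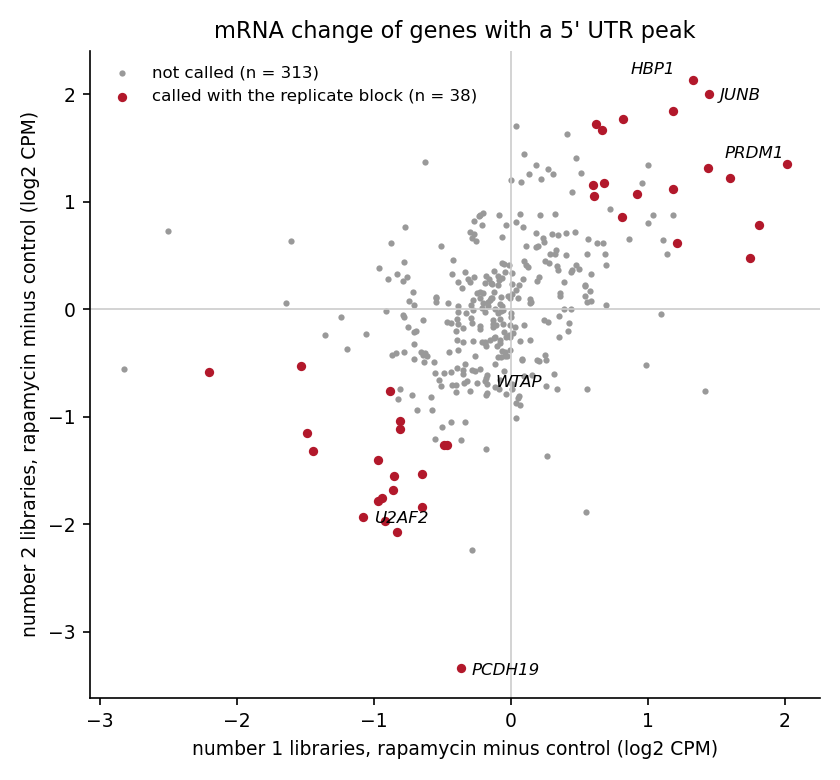
Difference in log2 CPM between rapamycin and control in the number 1 libraries (horizontal) and in the number 2 libraries (vertical) for the 351 tested genes with a 5′ UTR peak, red where edgeR's quasi-likelihood test with the replicate block gave an adjusted p under 0.05 (38 genes). *JUNB* and *HBP1* lie high on both axes, *U2AF2* low on both, and *PCDH19* low on the vertical axis alone.

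The lists of known genes were read against all 15826 tested genes, of which 2.22% had a 5′ UTR peak, and with the block 4.65% were higher and 3.5% lower. No difference between lists was tested, and the lists were chosen with earlier results of these data known. Of 28 immediate early and growth transcription factors, a list that mixes rapid response genes with lineage factors, 7 had one (*FOSL2*, *JUN*, *JUNB*, *IER2*, *KLF5*, *SOX2* and *SOX4*). Most of this list, 21 of the 28, had a peak of some class. With the block 11 of the 28 were higher and 0 lower, and the list median was 0.94 on the log2 scale beside 0.06 for all tested genes. This and the following list medians are from the fit without the block. *JUNB* and *IER2* were among the 11, and the other 5 with a 5′ UTR peak did not pass. *JUN* was the member of this group listed under all conditions, with fold enrichments of 12.8 and 16.4 in HSC3 and 13.7 and 13.4 in CAL33 (control, rapamycin). The CAL33 rapamycin peak lay beside the other 3 and did not overlap them. *JUN* mRNA was at 179 and 104 CPM with rapamycin and 154 and 56.7 CPM without, and did not pass (edgeR adjusted p = 0.20 with the block). *IER2* was at 211 and 105 CPM with rapamycin and 91.1 and 68.6 CPM without, with no overlap (log2 0.92, edgeR adjusted p = 0.029 with the block). Its log2 fold change without the block was 0.99, and 0.37 when rapamycin 1 was left out.

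Of 25 genes of the m6A and m6Am machinery, *WTAP* and *HNRNPC*, a reader of m6A-dependent RNA structure, had a 5′ UTR peak, whereas 19 of the 25 had a peak of some class. *HNRNPC* had its peak, 43.7, in HSC3 rapamycin. With the block 1 of the 25 was higher (*IGF2BP2*) and 2 were lower (*ALKBH5* and *RBMX*), with a list median of -0.26. Of 16 genes of the integrated stress response, several of whose mRNAs carry upstream reading frames, *TRIB3* had a 5′ UTR peak (80.7, HSC3 rapamycin). *TRIB3* mRNA was at 343 and 247 CPM with rapamycin and 113 and 106 CPM without, with no overlap (log2 1.41, edgeR adjusted p = 0.0018 with the block). In that list 10 of the 16 had a peak of some class, 4 were higher, 2 lower and the median was 0.45.

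Of the next lists, none of 28 initiation factors, 18 heat shock and proteostasis genes or 41 autophagy and lysosome genes had a 5′ UTR peak, though 8, 7 and 19 of them had a peak of another class. The zeros hold for these lists alone, since *BNIP3L* and *CRYAB*, a small heat shock protein with a peak of 151 in HSC3 control, stand outside them. The calls of the lists with the block were 1 higher and 5 lower for initiation (median -0.23), 0 higher and 8 lower for heat shock (median -0.84), and 5 higher and 0 lower for autophagy and lysosome (median 0.28). Of 29 mTOR signalling genes *IRS1* alone had a 5′ UTR peak and 18 had a peak of some class, with 3 higher and 1 lower (median -0.12). Of 36 polycomb, chromatin and histone enzymes *SETD1A*, a histone H3 lysine methyltransferase, and *BRD2*, a reader of acetylated histones, had a 5′ UTR peak. A peak of some class was on 26 of the 36, and 4 were higher and 2 lower (median -0.13). *BRD2* peaks had a fold enrichment of 115 in HSC3 rapamycin and 19.2 in CAL33 control, and its mRNA was at 358 and 491 CPM with rapamycin and 359 and 542 CPM without. Of the marker lists, *COL1A1* had a 5′ UTR peak (39.3, HSC3 control) and the epithelial list had 0. With the block 0 were higher and 3 lower among epithelial markers (median -0.09), and 0 in either direction among the others (median 0.59).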

How the data were processed

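The members and gene lists were chosen with earlier results of these data known. Gene counts that were not normalized were deposited for the 4 RNA-seq libraries. The authors' 4 deposited peak lists, 1 per line and treatment, give each peak's fold enrichment (a ratio over input), p-value and a score that is the log10 false discovery rate. The submitters' notes name cutadapt 2.5, HISAT2 2.1.0, featureCounts 1.6.3, HOMER 4.10.4 and hg38, while the deposited count table is named for HTSeq. The peak caller's settings are not given in the sources used here. Peaks were called per pair of libraries.

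Counts were fitted in R 4.3.3 with edgeR 4.0.16 (filterByExpr, TMM, robust quasi-likelihood test, Benjamini-Hochberg at 0.05) on all genes, and fold changes are on the log2 scale. The script was tested on simulated counts. DESeq2 1.42.0 was an alternative. Nothing states that libraries came from separate cultures, so p-values measure only the spread between these libraries. Replicate numbers were checked for pairing. The number 1 minus number 2 difference correlated between rapamycin and control across 15826 genes (r = 0.90), which are not independent. In the MeRIP-seq labels a number marks a line, and the methods state both lines with and without rapamycin for MeRIP-seq only. The RNA-seq line labels say otherwise, so the calls and the median over all members are given without the block first, with the blocked values beside them. Calls by treatment of the peak and by gene list are with the block alone. Log2 fold changes of single genes called with the block are from the blocked fit unless stated. That pairing is a reading of the data, not of the RNA-seq labels. Differences within a number used log2(CPM + 0.5).

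Overlaps, Wilson intervals and exact tests used Python 3.11.15 and scipy 1.17.1. Genes named are *WTAP*, up to 8 loci in all 4 lists (only 4 existed), the 5 leading genes with a peak in 1 treatment alone in both lines, the 3 largest changes in each direction among members past the threshold with the block and alike in direction in both pairs, and genes of the lists with a peak in 2 or more lists. Further genes were chosen after their values were seen. Peaks were matched to RefSeq starts by symbol, strand and chromosome. No genome sequence was used beyond those windows.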

Additional observations from a re-analysis of the deposited data

Results flagged for a closer look

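The share of 5′ UTR peaks changed in opposite directions with rapamycin in the 2 lines, by -0.37 percentage points in HSC3 and 0.79 in CAL33. The difference was not tested, since each line has 1 list per treatment. The *U2AF2* 5′ UTR peak differed by -1.48 on the log2 fold enrichment scale in HSC3 and by 2.75 in CAL33, and this was not tested either. The *MTRNR2L12* peak differed by -1.71 in HSC3 and 0.25 in CAL33, also untested, at a gene with at most 3 RNA-seq counts per library.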

How the results depend on the processing

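With the replicate block (pairing by number) the number of changed genes was 1290 in place of 0, and 38 in place of 0 among genes with a 5′ UTR peak. DESeq2 gave 36 and 1, of which 35 of the 36 were also called with the block, and its adjusted p was not given for 5216 genes. The other filters, upper-quartile scaling and leaving out each library gave 0. Upper-quartile scaling moved the median log2 fold change of the members to -0.013, and leaving out a library gave -0.14 to -0.03. Leaving exon-only peaks out of the total gave shares of 4.43%, 3.97%, 3.63% and 4.62%. Counting both strands gave GGAC in 30.4% of windows. The log2 5′ UTR over CDS ratio ranged from -0.0040 to 0.30 on leaving out a list, the lowest without HSC3 control, and was 0.33 in genes with both kinds of peak. Taken gene by gene, the median log2 ratio to CDS was -0.22 and 0.18 in HSC3 and -0.10 and -0.53 in CAL33 (control, rapamycin). The log2 5′ UTR over 3′ UTR ratio ranged from -0.22 to 0.12, the highest without CAL33 rapamycin, and was 0.40 in genes with both kinds of peak. Taken gene by gene, its median was -0.14 and 0.46 in HSC3 and 1.07 and 0.22 in CAL33 (control, rapamycin). Counting a gene with the same class of peak in both lists as shared, in place of overlapping bases, kept the sign of the sharing differences but moved them to -22.6 percentage points against CDS (from -9.47) and -16.6 against 3′ UTR peaks (from -6.00). The other values for the summaries kept their direction.

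Of 187 values for 21 named genes, 156 kept direction and call, 8 passed only in the alternative and 23 changed sign. *FBRS* was 0.0070 with the block, 0.0099 with DESeq2, 0.067 with upper-quartile scaling and 0.020 with at least 10 counts per library, and *IRS1* was -0.0049 with the block. Leaving out a library gave -0.42 to 0.23 for *BRD2*, -0.20 to 0.16 for *FBRS*, -0.54 to 0.42 for *IRS1*, -0.13 to 1.26 for *JUN*, -1.80 to 1.69 for *LHX1*, -0.56 to 2.56 for *LURAP1L*, -0.41 to 0.68 for *MSL2*, -0.81 to 0.038 for *NRIP1*, -7.92 to 3.53 for *PCDH19* and -0.52 to 0.18 for *PNMA1*. Without a change of sign it gave 0.37 to 1.38 for *IER2* and -3.87 to -0.32 for *TMEM158*. These fits had no block, so leaving out a library also made the numbers unequal between the treatments. A difference between treatments and one between numbers cannot be told apart in them. The planned search for DRACH, the degenerate m6A consensus, was not run. Few peaks per list and 1 library pair per list limit precision, and depth of the lists is unknown.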
